A study of Homo sapiens with 16 samples.

Results

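The set is made of protein-coding genes that were near silent in parental LNCaP cells and expressed in LNCaP cells without RB and p53. A gene was taken if its mean over the 8 libraries of the double knockout (DKO) was 2 CPM or more and its mean over the 8 parental (WT) libraries was 0.2 CPM or less, where CPM is the read count scaled by the library's total count in the usual unit. Of 19870 protein-coding genes outside the Y chromosome, of which 18622 had a count in any library, 17 met both limits. LSAMP, PCOLCE2 and BMP7 met them and were set aside by name, which left 14 members. Described here are 13 of the 14, SYNPO2L, PLPPR1, HUNK, HEPACAM2, THSD7B, TEX13C, DPYD, CDH19, RASGRF1, ERG, SEMA5A, IGF2BP2 and SOCS3. The members were thus selected on mean CPM in the 2 genotypes, and their difference between genotypes is described here without a test. The effect of the drug within DKO cells was not a criterion and was tested, but the limit on the mean over both treatments is not independent of it. In DKO DMSO alone IGF2BP2 (1.31 CPM), CDH19 (1.88 CPM) and SEMA5A (1.87 CPM) were below 2 CPM, and reached it through the EZ libraries. In DKO EZ alone SOCS3 was just below it (1.999 CPM).

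LNCaP is a prostate cancer line that depends on androgen signalling and was isolated from a lymph node, and the knockout was made in it with CRISPR-Cas9. Whether the knockout line was 1 clone or a pool is not given in the labels. Cells of each genotype received 50 µM enzalutamide (EZ), an antagonist of the androgen receptor, or an equal volume of the solvent DMSO for 6 days. The 4 groups were WT in DMSO, WT in EZ, DKO in DMSO and DKO in EZ, with 4 total RNA libraries each.

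RB holds E2F transcription factors in check and p53 activates genes that stop growth or kill damaged cells. Prostate cancers that lose both can give up luminal features and switch on genes of other lineages, such as those of neuroendocrine cells. Genes outside a cell's lineage are commonly kept off by closed chromatin, by DNA methylation or by the lack of an activator.

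Totals ran from 11823438 to 47678648 counts per library, so that 1 count was worth between 0.0210 and 0.0846 CPM in DKO libraries. RB1 was at 79.4 to 118 CPM in WT libraries and at 9.88 to 14.4 CPM in DKO libraries. All 12 luminal prostate markers listed were at 1 CPM or more on average in DKO cells, and their summed level was 3965 to 5532 CPM there against 5570 to 8167 CPM in WT. All 8 leukocyte markers were below 0.5 CPM in every group, with a summed level of 0.423 to 0.921 CPM in DKO and 0.243 to 0.595 CPM in WT. The share of RN7SL1, a small cytoplasmic RNA, parted the libraries into 6 with 2201 CPM or more and 10 with 1166 CPM or less. The first contained DKO replicates 1 and 2 and the WT libraries numbered 1, in both treatments.

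Every DKO library lay above every WT library for all 13 genes, which the choice of genes made likely, while 8.55% of protein-coding genes with a count did so. In the WT libraries 26 of the 104 values were 0 and the highest was 16 counts, reached by RASGRF1. All 13 genes had counts in every DKO library. Levels in DKO cells fell off steeply within the set. SYNPO2L averaged 56.4 CPM and PLPPR1 26.8 CPM over the 8 DKO libraries, HUNK 5.74 CPM, HEPACAM2 5.50 CPM and THSD7B 5.40 CPM. The other 8 genes lay between 2.00 CPM for SOCS3 and 3.15 CPM for TEX13C. Per kilobase of exon, the order of the leading genes was SYNPO2L at 11.0, PLPPR1 at 7.30 and HEPACAM2 at 2.22 CPM, while HUNK and THSD7B, with long transcripts, came to 0.691 and 0.798 CPM.

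**Figure D1:**
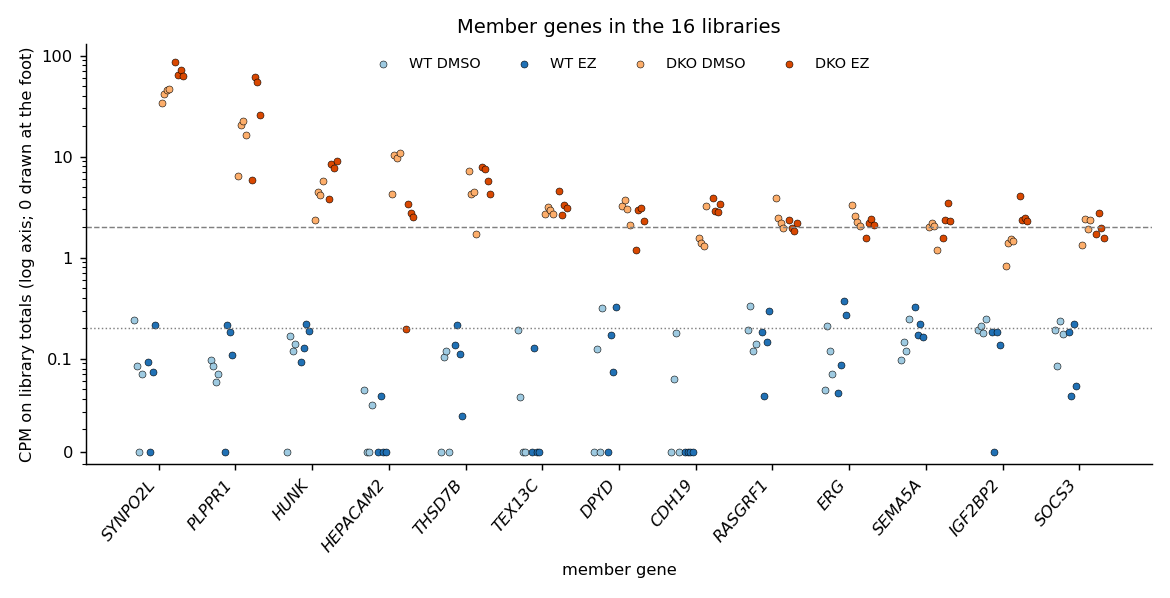
Level of each of the 13 genes in the 16 libraries, in CPM on a log axis with values of 0 drawn at the foot; each point is 1 library, and the lines mark the limits of 2 and 0.2 CPM on the genotype means. In every gene the DKO points lie above the WT points, and HEPACAM2 and PLPPR1 have the widest spread among DKO libraries.

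The limits fell in a continuum. Just inside the DKO limit were SOCS3 at 2.00 CPM, IGF2BP2 at 2.06 CPM and SEMA5A at 2.15 CPM, and just outside it TSPAN8 at 1.99 CPM, DMKN at 1.97 CPM and SERPINA5 at 1.85 CPM. At the WT limit SEMA5A had 0.186 CPM, RASGRF1 0.183 CPM and IGF2BP2 0.167 CPM, and just beyond it were SLCO3A1 at 0.2002 CPM, RUBCNL at 0.222 CPM and BNC2 at 0.227 CPM. With TMM-scaled library sizes (factors from a trimmed mean of gene ratios) in the CPM, 11 of the 14 remained and IGF2BP2, SEMA5A and SOCS3 dropped out.

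The promoters of the leading genes were of different kinds. RefSeq promoters (GRCh38.p14, 250 bases before to 50 bases after the start) were found for 11 of the 13 genes. The 250 bases before the start are shown for SYNPO2L and PLPPR1, the most abundant members, with each CpG in capitals. For HEPACAM2 and THSD7B they are shown with CAGCTG in capitals, an E-box, the kind of site bound by basic helix-loop-helix factors. They lie at chr10:73656030-73656279 on the minus strand, chr9:101028477-101028726 on the plus strand, chr7:93232199-93232448 on the minus strand and chr2:136765295-136765544 on the plus strand, in that order.
SYNPO2L: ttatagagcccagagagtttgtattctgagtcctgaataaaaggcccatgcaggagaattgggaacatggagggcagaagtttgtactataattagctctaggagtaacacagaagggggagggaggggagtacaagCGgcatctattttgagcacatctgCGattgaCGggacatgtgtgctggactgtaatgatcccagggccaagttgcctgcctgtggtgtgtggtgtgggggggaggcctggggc
PLPPR1: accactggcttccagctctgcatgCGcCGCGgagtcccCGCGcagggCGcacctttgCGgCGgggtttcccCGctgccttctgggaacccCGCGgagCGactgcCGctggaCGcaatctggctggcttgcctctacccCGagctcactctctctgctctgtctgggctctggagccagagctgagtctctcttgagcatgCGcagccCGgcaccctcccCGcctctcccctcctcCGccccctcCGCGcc
HEPACAM2: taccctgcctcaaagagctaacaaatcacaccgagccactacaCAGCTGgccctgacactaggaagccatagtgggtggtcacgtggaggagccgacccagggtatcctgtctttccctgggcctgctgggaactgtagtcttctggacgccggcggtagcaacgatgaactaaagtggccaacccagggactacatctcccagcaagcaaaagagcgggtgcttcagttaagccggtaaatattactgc
THSD7B: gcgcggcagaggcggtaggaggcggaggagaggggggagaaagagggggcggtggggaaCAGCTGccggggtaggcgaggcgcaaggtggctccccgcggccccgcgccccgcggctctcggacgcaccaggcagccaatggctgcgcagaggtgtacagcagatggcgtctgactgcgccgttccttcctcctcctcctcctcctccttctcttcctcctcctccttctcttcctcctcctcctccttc
The stretch before SYNPO2L held 3 CpG and that before PLPPR1 21. Over the full 300 bases, GC content above 50% with a CpG ratio, observed over that given by base composition, above 0.6 was met by 7 of 11 members (63.6%) and by 64.1% of 15286 promoters. SYNPO2L, HEPACAM2, CDH19 and SOCS3 missed it. CAGCTG was present in HEPACAM2 and THSD7B, 2 of 11 members (18.2%), against 17.7% of all promoters, and CANNTG, which includes it, in 7 of 11 (63.6%) against 64.4%. On both strands, none of the 11 held the E2F motifs TTTCCCGC (2.19% of all promoters) and TTTGGCGC (0.903%) or TATAAA (9.60%). None held the androgen receptor half-site AGAACA (11.1%) or the p53 half-site (5.93%), a part of the full p53 element. A match is only a description of letters in a window. The distances below run from the outermost GENCODE start of each gene. The RefSeq start lay 74.0 kb inside that for DPYD, 7.77 kb inside it for SYNPO2L, 5.67 kb beyond it for HEPACAM2 and 1.11 kb inside it for ERG, and within 1 kb of it for the other 7.

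The 13 genes were spread over 12 chromosomes, 9 on the minus and 4 on the plus strand. The pair that shared a chromosome was HUNK and ERG on chromosome 21, with starts 6.79 Mb apart, so no member neighboured another within 1 Mb. Many were long: 9 of 13 gene bodies exceeded 100 kb, as did 18.1% of protein-coding genes, with DPYD at 917 kb and THSD7B at 912 kb the longest. SOCS3, at 3.30 kb, and TEX13C, at 5.10 kb, were the shortest.

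Proteins at the cell surface or secreted were the largest role group, with 5 members. PLPPR1 (chr9:101028709-101325135), a membrane protein of the phospholipid phosphatase-related family that promotes neurite and filopodia growth, had 6.48, 20.4, 22.4 and 16.5 CPM in DKO DMSO replicates 1 to 4 and 5.84, 61.7, 55.0 and 25.9 CPM in DKO EZ. It was higher with the drug in replicates 2, 3 and 4, and replicate 1 was the lowest in both treatments, so the treatments overlapped. In WT it ran from 0 to 0.215 CPM with a median of 0.0906 CPM. Its relative PLPPR2 was expressed in every group, at 35.5 ± 2.71 CPM in WT DMSO and 30.6 ± 4.46 CPM in DKO DMSO (SD, n = 4), and PLPPR3, PLPPR4 and PLPPR5 stayed below 0.5 CPM on average in all groups.

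HEPACAM2 (chr7:93188586-93226524), an immunoglobulin-type adhesion protein known from secretory cells of the gut, had 4.26, 10.3, 9.75 and 10.9 CPM in DKO DMSO and 0.197, 3.38, 2.75 and 2.52 CPM in DKO EZ. All EZ libraries lay below all DMSO libraries, and the lowest held 3 counts. The coefficient of variation over the 8 DKO libraries was 75.4% for HEPACAM2 and 77.7% for PLPPR1, the highest of the 13. The 8 WT libraries together held 3 counts of HEPACAM2, against 1247 in DKO. HEPACAM, the adhesion protein it is named after, had the opposite order, with 3.66 ± 1.14 CPM in WT DMSO and 1.15 ± 0.273 CPM in DKO DMSO (SD, n = 4).

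THSD7B, a membrane protein with thrombospondin repeats whose function is little studied, was at 7.25, 4.22, 4.47 and 1.70 CPM in DKO DMSO and at 7.94, 7.53, 5.77 and 4.28 CPM in DKO EZ. Replicate 1 was its highest and replicate 4 its lowest in both treatments. CDH19, a cadherin of Schwann cell precursors, had 1.55, 1.39, 1.30 and 3.26 CPM in DKO DMSO and 3.87, 2.88, 2.82 and 3.38 CPM in DKO EZ. Each replicate number was higher in EZ for both genes, while the treatments overlapped. SEMA5A, an axon guidance semaphorin with thrombospondin repeats, ranged from 1.20 to 3.44 CPM over the DKO libraries.

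Regulators of transcription or RNA were ERG and IGF2BP2. IGF2BP2 (chr3:185643739-185825056), an RNA-binding protein that stabilises mRNAs and is best known from fetal growth, had 0.831, 1.39, 1.54 and 1.46 CPM in DKO DMSO and 4.07, 2.37, 2.50 and 2.29 CPM in DKO EZ. The treatments did not overlap. ERG, an ETS transcription factor that many prostate cancers express through fusion to TMPRSS2, was at 1.57 to 3.32 CPM in DKO libraries, among the evenest members with a coefficient of variation of 21.7%.

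Among the signalling genes, the kinase HUNK (chr21:31873315-32044633) had 2.38, 4.45, 4.19 and 5.79 CPM in DKO DMSO and 3.80, 8.46, 7.68 and 9.13 CPM in DKO EZ. It was the member whose replicates kept the same order in both treatments, with replicate 1 lowest and replicate 4 highest. RASGRF1, a Ras exchange factor best known from neurons, lay between 1.85 and 3.88 CPM in DKO libraries. SOCS3, a feedback inhibitor of JAK-STAT signalling, lay between 1.33 and 2.79 CPM there.

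The other 3 members had unrelated roles. SYNPO2L (chr10:73644881-73663803), an actin-binding protein of the muscle Z-disc, had 33.7, 41.3, 45.7 and 46.3 CPM in DKO DMSO and 86.3, 64.3, 71.3 and 62.0 CPM in DKO EZ. Each EZ library was above each DMSO library. In WT it lay between 0 and 0.243 CPM with a median of 0.0789 CPM. Of its paralogues, SYNPO was at 0.972 ± 0.215 CPM in WT DMSO and 3.25 ± 0.313 CPM in DKO DMSO, and SYNPO2 was at 0.181 ± 0.126 and 0.770 ± 0.229 CPM (SD, n = 4). DPYD, the first enzyme of pyrimidine breakdown, was at 1.18 to 3.71 CPM in DKO libraries. TEX13C, named for expression in testis, was the most even member at 2.62 to 4.59 CPM, with a coefficient of variation of 20.1%.

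Within DKO cells the set did not move as one. The test was the quasi-likelihood F-test of edgeR over all 16 libraries, with adjustment over 21810 genes and a threshold of 0.05. None of the 13 members passed it, against 1.48% of all tested genes. At an unadjusted p under 0.05 there were 5 members, HEPACAM2, SYNPO2L, IGF2BP2, HUNK and PLPPR1, and 13.3% of all tested genes. The lowest adjusted p was 0.0843 for HEPACAM2. DESeq2 called SYNPO2L, IGF2BP2 and HEPACAM2, 3 of 13 against 3.41% of genes. The median log2 fold change was 0.43 over the members and 0.01 over all tested genes. Of the members 9 were positive and 4 negative, and of all tested genes 50.7% were positive. IGF2BP2, CDH19 and SEMA5A, which reached the limit of 2 CPM through the EZ libraries, were among the positive members. The choice thus favoured positive values for them. The median, the signs and the counts of members that include IGF2BP2 are not independent of it.

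Same-numbered libraries deviated together from their group means, so a fit with the replicate number as a block is given beside each result. Unless stated otherwise, values with the block come from the 8 DKO libraries and values without it from all 16, so the libraries entering the fit differ as well. In that fit of the 8 DKO libraries, 3 members rose and 1 fell with the drug, by edgeR's adjusted p. Over all 20159 genes tested there, 6.62% rose and 4.95% fell. IGF2BP2, 1 of the 3 that rose, met the limit of 2 CPM only through the EZ libraries. Its call is thus not independent of the choice of members. The block over all 16 libraries called PLPPR1, HUNK and HEPACAM2, 3 of 13, against 5.06% of genes. EZ and DMSO libraries did not overlap for SYNPO2L, IGF2BP2 and HEPACAM2, 3 of 13 members, and for 10.8% of tested genes. Here too IGF2BP2 is not independent of the choice.

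HEPACAM2 was the member that fell. Its log2 fold change was -1.95 ± 0.53 (SE) without the block, with an adjusted p of 0.0843 in edgeR, and -2.07 ± 0.28 with it, at an adjusted p of 0.00537. It was lower in EZ in 4 of 4 replicate numbers and stayed past the threshold when each number was left out of the blocked fit, with an adjusted p of up to 0.049.

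SYNPO2L rose by 0.78 ± 0.15 log2 units in the blocked edgeR fit (adjusted p = 0.0182), from 41.8 ± 5.83 CPM to 71.0 ± 11.0 CPM (SD, n = 4). In the 16 libraries without the block it was 0.79 ± 0.23 with an adjusted p of 0.107. The call did not follow the block alone: SYNPO2L passed in the 8 DKO libraries without a block (edgeR adjusted p = 0.0286) and missed with the block over 16 (0.0516). HUNK rose by 0.80 ± 0.13 (adjusted p = 0.00763 with the block, 0.322 without). IGF2BP2, which met the limit of the set only through its EZ libraries, rose by 1.04 ± 0.28 (adjusted p = 0.0450 with the block, 0.180 without). Each of these 3 was higher in EZ in 4 of 4 numbers. In the 8 DKO libraries without a block, the edgeR adjusted p was 0.252 for HUNK, 0.0956 for IGF2BP2 and 0.121 for HEPACAM2. SYNPO2L missed the threshold without number 2 (adjusted p = 0.0875) or 3 (0.0837), HUNK likewise without 2 (0.0722) or 3 (0.0764), and IGF2BP2 held the call when number 1 was left out (0.0335) but missed it without 2 (0.143), 3 (0.134) or 4 (0.0720).

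PLPPR1 had the largest positive value without the block, 1.20 ± 0.53, at an adjusted p of 0.340 in edgeR. With the block over 16 libraries it was 0.94 ± 0.23 (adjusted p = 0.0310), with a block within each genotype the adjusted p was 0.0639, and in the 8 DKO libraries it was 0.95 ± 0.29 (0.110). The remaining 8 members passed none of these fits. With 1 replicate number left out of the blocked edgeR fit, PLPPR1 (adjusted p = 0.00349) and THSD7B (0.00678) passed without number 1 and CDH19 (0.0241) without number 4. Their blocked values in DKO cells ran from -0.29 for DPYD to 0.82 for CDH19, and SOCS3 was at -0.04 ± 0.22.

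**Figure D2:**
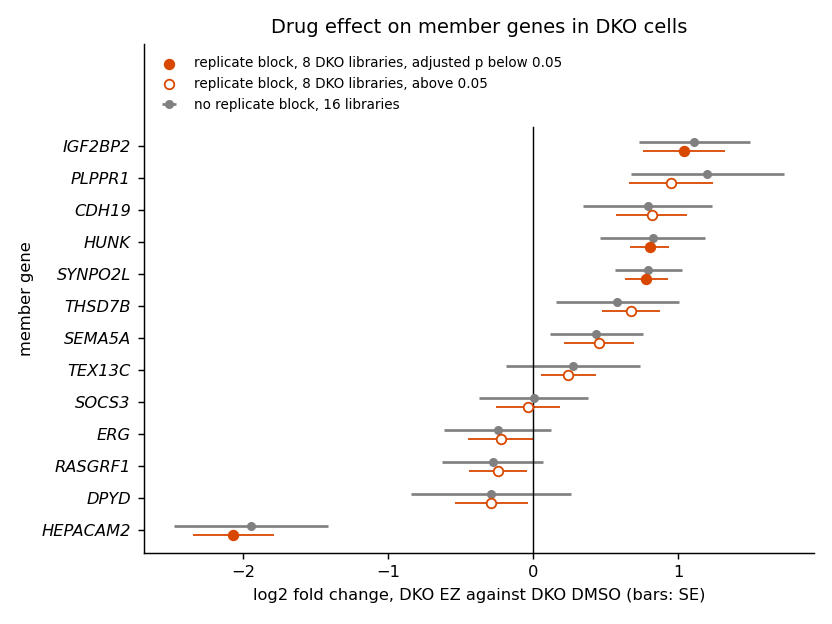
Log2 fold change of EZ against DMSO in DKO cells for each member, with SE bars, without the replicate block (grey, 16 libraries) and with it (orange, 8 DKO libraries; filled where the adjusted p was below 0.05). IGF2BP2, HUNK and SYNPO2L are filled on the higher side and HEPACAM2 on the lower side.

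Replicate numbers 1 and 2 of DKO lay in the high RN7SL1 set and 3 and 4 in the low set. The direction of each of these 4 members was the same in both sets. Per number, the log2 ratio of EZ to DMSO for SYNPO2L was 1.36 and 0.64 in the high set and 0.64 and 0.42 in the low set. For HUNK it was 0.68 and 0.92, then 0.88 and 0.66. IGF2BP2 gave 2.29 and 0.77, then 0.69 and 0.64, so that replicate 1 stood apart. With the RN7SL1 set as a term in edgeR and no block, the adjusted p was 0.0516 for HEPACAM2, 0.0732 for SYNPO2L, 0.144 for IGF2BP2 and 0.178 for HUNK.

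**Figure D3:**
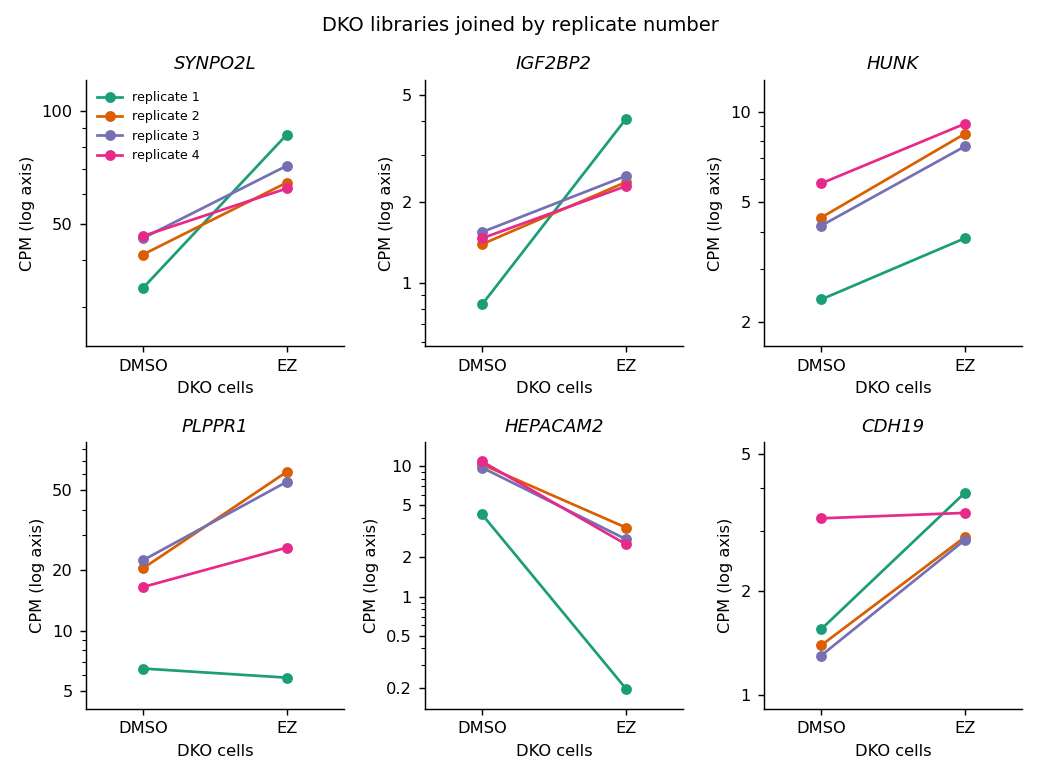
Level of 6 members in the DKO libraries, in CPM on log axes, with a line joining the DMSO and EZ libraries of each replicate number. SYNPO2L, IGF2BP2 and HUNK slope up in all 4 numbers, CDH19 likewise with a slight slope in replicate 4, HEPACAM2 slopes down in all 4, and PLPPR1 up in 3 of 4; replicate 1 lies lowest in both treatments for HUNK, PLPPR1 and HEPACAM2.

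Replicate 1 was the lowest DKO library in both treatments for HUNK, PLPPR1 and HEPACAM2. In DKO EZ, replicate 1 had the lowest level of the proliferation marker MKI67, at 51.8 CPM against 114 to 205 CPM. In DKO DMSO, replicate 1 was not low in MKI67, at 301 CPM. The lowest there was replicate 4, at 84.9 CPM against 297 to 313 CPM. Replicate 4 was the highest DKO DMSO library for CDH19 and the lowest for THSD7B. The part of MKI67 in these values was not tested. Over the 8 DKO libraries the member most like SYNPO2L was IGF2BP2 (Spearman rho 0.976), followed by CDH19 (0.690) and, at the same value, THSD7B and TEX13C (0.476). PLPPR1 was most like SEMA5A (0.881), HUNK (0.810) and SOCS3 (0.476), and HEPACAM2 most like SOCS3 (0.429), DPYD (0.381) and ERG (0.333). These describe 8 libraries that share treatment, depth and replicate numbers. Over all 78 pairs of members rho ran from -0.833 to 0.976 with a median of 0.048. Pairs of other genes were not examined, so whether this range is particular to the set was not tested.

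Lists of related genes were read from the same edgeR fit of the drug in DKO cells. Of all tested genes 1.48% passed without the block in either direction, and 6.62% rose and 4.95% fell with it. Of 20 sarcomere and Z-disc genes 14 were tested, and MYOZ1, a Z-disc protein that binds calcineurin, was higher and none lower, with and without the block. Of 14 goblet and secretory epithelium genes 6 were tested, and TFF1 and TFF3, small peptides secreted with mucus, were lower and none higher. TFF3 went from 5.08 ± 2.25 to 0.834 ± 0.232 CPM and TFF1 from 2.94 ± 0.383 to 0.751 ± 0.391 CPM (SD, n = 4), at adjusted p of 0.00675 and 0.0474. The TFF3 call held without each single library (adjusted p of up to 0.0256), while that of TFF1 was lost in 13 of the 16 cases (up to 0.126), and with the block it was at 0.00524. The block added AGR2 and FCGBP to the lower genes, 4 of 6, against 4.95% of all genes tested there. In WT cells these 4 genes also had lower means in EZ than in DMSO. TFF3 was at 3.23 ± 0.383 CPM in WT DMSO and 1.35 ± 0.828 CPM in WT EZ, and TFF1 at 0.335 and 0.19 CPM. AGR2 was at 6.50 and 2.01 CPM and FCGBP at 37.0 and 22.5 CPM. The drug effect in WT was not tested for them.

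Of 14 neuroendocrine markers 10 were tested and none passed without the block, with 1 at an unadjusted p under 0.05 and none in DESeq2. With it 8 of them were tested and ENO2, neuronal enolase, rose by 0.41 ± 0.09 log2 units (edgeR adjusted p = 0.0225). That is 1 of 8, against 6.62% of all genes tested there. Synaptic and axonal genes (11 of 21 tested) and testis-restricted genes (12 of 20 tested) gave none in either fit, none at an unadjusted p under 0.05 and none in DESeq2. Extracellular matrix genes (12 of 18 tested) gave none without the block, with 2 at an unadjusted p under 0.05 and none in DESeq2. With it COL5A2 was higher and FBN1 lower among the 12, against 6.62% and 4.95% of all genes tested there.

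Adjacent genes were read on each side of every member, as the nearest protein-coding start. Of these 26 neighbours, 4 (15.4%) were at least 2-fold higher in DKO than in WT by mean CPM, 1 (3.85%) at least 2-fold lower, 13 within 2-fold and 8 below 0.5 CPM in both genotypes. Over neighbours of all protein-coding genes, 7.66% were 2-fold higher and 1.74% lower. The 4 were MYOZ1 beside SYNPO2L, CDH7 beside CDH19, and CXCR4 and HNMT on either side of THSD7B. Their starts lay 22.1, 854, 647 and 1198 kb from those of the members, in that order. Of these 4, MYOZ1 alone lay within 500 kb. In windows of 500 kb on each side there were 68 protein-coding genes, of which 54 reached 0.5 CPM in a genotype. There 7.41% were 2-fold higher in DKO, against 10.9% of all such genes, and the median log2 ratio was 0.24 against 0.16.

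MYOZ1 (chr10:73631654-73641757), the gene next to SYNPO2L on the same strand with starts 22.1 kb apart, or 14.3 kb from the RefSeq start of SYNPO2L, is a muscle Z-disc gene as well. It had 16.0, 14.99, 17.5 and 23.4 CPM in DKO DMSO and 56.2, 38.7, 38.8 and 36.6 CPM in DKO EZ, with no overlap. Its log2 change with the drug was 1.27 ± 0.21 in edgeR (adjusted p = 0.00648) and 1.25 ± 0.18 with the block (0.00768). The call held without each single library, at an adjusted p of up to 0.0330, and the blocked call missed the threshold without number 2 (0.0639) or 3 (0.0557). In WT, MYOZ1 was at 0.457 ± 0.158 CPM in DMSO and 3.19 ± 0.311 CPM in EZ (SD, n = 4), also without overlap, while SYNPO2L was at 0.0993 ± 0.103 and 0.0956 ± 0.0899 CPM. The drug effect in WT was not tested for either gene.

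CDH7, a cadherin whose start lies 854 kb from that of CDH19, averaged 0.340 CPM in WT and 3.94 CPM in DKO. With the drug it changed by 1.11 ± 0.42 without the block (adjusted p = 0.223 in edgeR) and rose by 1.09 ± 0.15 with it (0.00467). The other edgeR fits missed the threshold, at an adjusted p of 0.0675 with the block over 16 libraries and 0.0549 with a block within each genotype. In the 8 DKO libraries without a block CDH7 was at 0.104, and in DESeq2 at 0.108.

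On either side of THSD7B, the chemokine receptor CXCR4 averaged 0.335 CPM in WT and 1.31 CPM in DKO, and the histamine-inactivating enzyme HNMT 0.475 and 1.18 CPM. The genotypes did not overlap for CXCR4 but did for HNMT, which had 0.590 to 0.846 CPM in DKO EZ and 0.456 to 0.986 CPM in WT DMSO. HNMT fell by 1.07 ± 0.23 with the drug in the blocked edgeR fit (adjusted p = 0.0218; 0.185 without the block), while THSD7B was at 0.68 ± 0.20 there (0.0615). Beside HEPACAM2 the order was the reverse. SAMD9L and SAMD9, interferon-induced antiviral genes with starts 78.2 and 109 kb away, had lower means in DKO, and VPS50, a trafficking gene on the opposite strand, was at 52.6 CPM in WT and 48.4 CPM in DKO. Its start lies 5.82 kb from the GENCODE start of HEPACAM2 and 0.142 kb from the RefSeq start, inside the promoter stretch printed above. SAMD9 had 9.25 to 382 CPM in WT libraries and 9.83 to 23.6 CPM in DKO libraries, and SAMD9L 0.276 to 17.2 CPM and 0.222 to 1.10 CPM, so the genotypes overlapped for both. Among the neighbours tested with the block in edgeR, MYOZ1, CDH7 and CTSH rose with the drug and HNMT fell. Of all genes tested there 6.62% rose and 4.95% fell. CTSH, beside RASGRF1, was at 0.47 ± 0.07 (adjusted p = 0.00645, and 0.0902 without the block). RASGRF1 itself was at -0.24 ± 0.20 with the block (0.459).

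**Figure D4:**
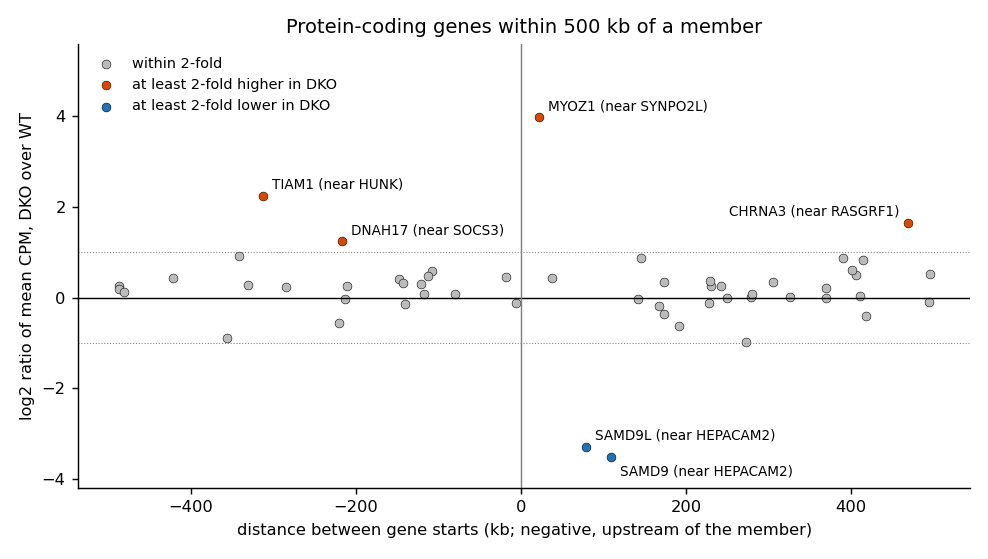
Log2 ratio of mean CPM (DKO over WT, 0.1 CPM added to both) of the protein-coding genes within 500 kb of a member that reached 0.5 CPM in a genotype, against the distance between gene starts in kb. Each point is 1 gene; 4 lie above the upper line of 2-fold, with MYOZ1 the closest to a member, and SAMD9L and SAMD9 lie below the lower line.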

How the data were processed

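The deposited values were unnormalised counts, 1 file per library, with Ensembl gene IDs. STAR 2.7.3a and GRCh38 are named in the submitters' processing notes; the counting tool, strand setting and annotation release do not stand in the labels or file headers (not given in the sources used here). Per the labels' protocols, RNA was total RNA after ribosomal RNA reduction. Groups and replicate numbers were taken from the sample titles. Whether replicates came from separate cultures is not stated, and the p-values reflect the spread among these libraries, which may be technical. Symbols came from a gene table that named 60357 of 60676 IDs, and types, coordinates and lengths from GENCODE v29 on GRCh38, which held 58503.

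Counts were fitted with edgeR 4.0.16 (R 4.3.3) by the quasi-likelihood test with TMM scaling, filterByExpr (minimum count 10, total 15), 1 mean per group and Benjamini-Hochberg adjustment over all tested genes. All 13 members described passed the filter. SEs are the absolute log2 fold change divided by the square root of F. DESeq2 1.42.0 served as an alternative. The fit was also run on simulated counts, drawn independently with the same spread setting for all genes. Those counts lacked the shared deviations of same-numbered libraries, so that run cannot show how the fit behaves with them.

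For genes with a mean of 5 CPM or more, deviations from group means of same-numbered DMSO and EZ libraries correlated at 0.385 to 0.718 in DKO and 0.176 to 0.714 in WT, all above 0.1. The pairing comes from the data, not from the labels, and in DKO each DMSO library correlated best with its own number. In WT, DMSO replicate 2 correlated better with number 3 (0.673 against 0.619) and replicate 4 with number 1 (0.285 against 0.176). Blocked values are therefore printed.

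The members, lists, tests and alternatives were chosen with earlier results of these data known, and the grouping by role was written after the members were seen. The genes named were the markers SYNPO2L, HEPACAM2 and PLPPR1, the 15 most abundant members (here all), genes nearest each limit, the most and least variable members, the members most like each marker, and neighbours within 1 Mb or overlapping. MKI67, HNMT, CTSH and family members were named after their values were seen. 1 member and some other genes and lists are not reported here. The lists described were 14 in all, of which 8 besides those described in the comparison text stand in the closing section. Neighbours are the nearest starts of protein-coding genes; motifs were counted on both strands with overlaps allowed.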

Additional observations from a re-analysis of the deposited data

Results flagged for a closer look

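In each of the 26 groups of 4 DKO libraries (13 genes in DMSO and in EZ), the highest and the lowest library were compared with the others by the gap to the nearest library over the range of the group, against Dixon's critical value for 4 samples. Chance alone marks about 1 group in 20, and 3 were marked here. CDH19 was at 3.26 CPM in DKO DMSO replicate 4, above the other 3 libraries. HEPACAM2 was at 4.26 CPM in DKO DMSO replicate 1, below the other 3. IGF2BP2 was at 4.07 CPM in DKO EZ replicate 1, above the other 3.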

How the results depend on the processing

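The number of genes meeting the selection rule was 11 with TMM-scaled totals, 16 with medians, 17 in DMSO libraries alone, 19 in EZ libraries alone and 13 to 16 with 1 library left out. Of the 14 members, 12 were kept with medians, 11 in DMSO libraries alone and 12 in EZ libraries alone. The rest of those genes were others, such as BNC2 and TSPAN8 in DMSO and CXCL12 and DMKN in EZ. Without the block, upper-quartile scaling, relative log expression, library totals, no filter on low counts and the RN7SL1 term each left the count of members past the threshold at 0, and leaving out any 1 of the 16 libraries gave 0 higher and 0 lower. The 8 DKO libraries alone gave 1 higher, the replicate block over 16 libraries 2 higher and 1 lower, the replicate block in the 8 DKO libraries 3 and 1, the replicate block within genotype (chosen after seeing the data) 2 and 1, and DESeq2 2 and 1. The counts with the block in the 8 DKO libraries and in DESeq2 include IGF2BP2, which met the limit only through its EZ libraries. The count of all genes changed was 322 without the block, 167 without a filter, 519 with the RN7SL1 term, 701 in DESeq2, and 1104, 2333 and 1691 in those 3 blocked fits. Leaving out 1 library gave 73 to 451 genes, lowest without DKO DMSO replicate 2. In the blocked DKO fit, leaving out 1 replicate number (chosen after seeing the data) gave 0 to 5 members higher, 1 lower each time and 329 to 3568 genes in all (1520 without number 4). The median of the members stayed between 0.25 and 0.58 in those runs (0.54 without number 2, 0.31 without number 3) and between 0.26 and 0.52 with 1 library left out.

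SOCS3, at 0.0022 without the block, was at -0.0027 with upper-quartile scaling, -0.024 with library totals, -0.031 without a filter, -0.016 in the 8 DKO libraries alone, -0.0095, -0.038 and -0.0075 in the 3 blocked fits, -0.013 with the RN7SL1 term and -0.014 in DESeq2. It ranged from -0.19 to 0.11 with 1 library left out and from -0.16 to 0.20 with 1 replicate number left out (-0.12 without number 2, -0.059 without number 3). Without replicate number 1 ERG was at 0.0088 in the blocked fit. The cause of these shifts was not tested. Depth limits the low members: 1 count is worth 0.0846 CPM in the shallowest DKO library.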

Other observations

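Genes of other types also met both limits. RNU6-1, a gene of the U6 RNA of the spliceosome, was at 218 to 468 CPM in DKO libraries and at 0.316 CPM or less in WT libraries. Whether the reads counted for RNU6-1 came from that gene was not tested, so its values do not show that the gene was switched on. MAGEA4-AS1, antisense to the cancer-testis gene MAGEA4, was at 1.61 to 2.98 CPM and at 0.294 CPM or less. MAGEA4 itself averaged 16.0 CPM in WT DMSO and 180 CPM in DKO DMSO. The bodies of the pair overlap and whether the counting used strand is unknown here, so their reads cannot be told apart. The reverse pattern, 2 CPM or more in WT and 0.2 CPM or less in DKO, was met by 19 protein-coding genes.

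Lists of other cell types were read from the same edgeR fit of the drug in DKO cells. In the 16 libraries without the block none of their tested genes passed: 12 of 12 luminal markers tested (3 at an unadjusted p under 0.05, KLK2 in DESeq2), 4 of 7 basal markers (2, DST), 3 of 7 endothelial markers (2, VWF) and 3 of 7 fibroblast markers (1, none), while no leukocyte marker could be tested. With the replicate block TMPRSS2 was higher among the 12 luminal markers tested there and DST among 3 basal markers tested. EGFL7 was higher and VWF lower among 2 endothelial markers tested, and PDGFRB lower among 3 fibroblast markers tested. Of all genes tested with the block 6.62% rose and 4.95% fell. In the families of the leading members, PLPPR2, SYNPO2L and HEPACAM2 were called with the block (PLPPR2 and SYNPO2L higher, HEPACAM2 lower) and by DESeq2, and in the 16 libraries without it none passed of 3, 3 and 2 genes tested (2, 1 and 1 at an unadjusted p under 0.05), while in the 8 DKO libraries without it SYNPO2L passed. Tested with the block were 2, 3 and 2 genes of these families.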
